A study of Mus musculus with 23 samples.

Results

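The miR-34 and miR-449 family is a group of microRNAs (miRNAs, short RNAs that guide Argonaute proteins to messenger RNAs) defined by a shared seed in their 5p arms. Its members were taken by name from the per-library count tables: miR-34a-5p, miR-34b-5p, miR-34b-3p, miR-34c-5p, miR-34c-3p, miR-449a-5p and miR-449c-5p, 7 of the 1915 miRNAs listed. They were measured by small RNA sequencing in 23 libraries of brain tissue dissected from C57BL/6 mice, 11 of Cdr1as knockout and 12 of wild type genotype. Each of the regions cerebellum, cortex, hippocampus and olfactory bulb had 3 knockout and 3 wild type libraries, except that the hippocampus had 2 knockout libraries, numbered 2 and 3. Cdr1as is a neuronal circular RNA known for its many miR-7 binding sites, and the study compared the genotypes to learn how miRNAs change without its locus. The labels give no age or sex and do not say that replicate libraries were made from different mice, so p-values measure only the spread between these libraries. These libraries hold miRNAs and no circular RNA, which leaves the loss of Cdr1as itself unchecked.

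A miRNA is cut from a hairpin whose sides give a 5p and a 3p arm, and the seed, a stretch near the 5′ end, sets most of its target choice. The family comes from separate loci. Its member miR-34a is best known as a miRNA that the tumour suppressor p53 switches on. The miR-34b/c pair and miR-449 are abundant in multiciliated cells and are needed there to form motile cilia. In the brain such cells are the ependyma that lines the ventricles and, with a modified set of cilia, the choroid plexus that makes the cerebrospinal fluid.

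The mature sequences are shown because the family is defined by them. They are RefSeq entries of build GRCm38.p6, written 5′ to 3′ with the seed (bases 2 to 8) in capitals, and 6 of the 7 members, all but miR-34c-5p, matched an entry by name.
miR-34a-5p: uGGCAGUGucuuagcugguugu
miR-34b-5p: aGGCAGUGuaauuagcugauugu
miR-449a-5p: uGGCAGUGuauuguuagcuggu
miR-449c-5p: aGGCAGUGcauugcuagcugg
miR-34b-3p: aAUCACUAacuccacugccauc
miR-34c-3p: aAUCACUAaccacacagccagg
Of the 1679 mature sequences in that table, the seed GGCAGUG was found in the 5p arms shown, 4 in number, and the seed AUCACUA in the 3p arms of miR-34b and miR-34c. Outside the seed the 5p arms diverge. Aligned without gaps from the 5′ end, miR-449a-5p and miR-449c-5p have the same base at 18 of 21 positions, miR-34a-5p and miR-449a-5p at 15 of 22, and miR-34a-5p and miR-34b-5p at 11 of 22. The 3p arms of miR-34b and miR-34c have the same base at 17 of 22 positions.

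In GRCm38, miR-34a-5p lies on the plus strand at chr4:150068473-150068494, inside an exon of the uncharacterised transcript Gm37795. The miR-34b and miR-34c hairpins lie on the minus strand of chromosome 9 within an intron of Btg4, which runs on the other strand, with miR-34b-5p at chr9:51103610-51103632 and miR-34c-3p at chr9:51103044-51103065. The miR-449 hairpins lie on the plus strand of chromosome 13 within an intron of Cdc20b on the same strand, with miR-449c-5p at chr13:113036008-113036028 and miR-449a-5p at chr13:113037549-113037570. The deposited tables were made on the older build mm9 and give no coordinates, so these positions locate the genes and were not used in any count.

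Library totals ran from 2328929 to 13070794 counts, with 741 to 1094 miRNAs detected. All 7 members passed the filter on low counts, as did 669 of the 1459 miRNAs with any count. Levels are CPM, the counts scaled to library size and then by TMM factors. By mean level over the 23 libraries, miR-34c-5p ranked 83 of 1459 at 907 CPM, miR-34a-5p 201 at 102 CPM, miR-34b-5p 254 at 47.6 CPM, miR-449a-5p 367 at 15.2 CPM and miR-449c-5p 543 at 2.18 CPM. The 3p arms miR-34b-3p and miR-34c-3p averaged 11.01 and 5.78 CPM. The deepest counts were those of miR-34c-5p, at 455 to 38800 per library, and the thinnest those of miR-449c-5p, at 4 to 28, miR-34b-3p, from 2, and miR-34c-3p, from 2, so counting error alone is large for these last 3 in the shallow libraries. Scaled to library size alone, before the TMM factors, 3 counts corresponded to 0.230 to 1.29 CPM, so this range is not on the scale of the levels given here. It covers counting error only, since PCR reads carry no molecular identifiers. Of the family's other arms, miR-34a-3p had 134 counts in all, spread over 19 of 23 libraries, miR-449a-3p had 2, and miR-449b and miR-449c-3p had 0.

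**Figure D1:**
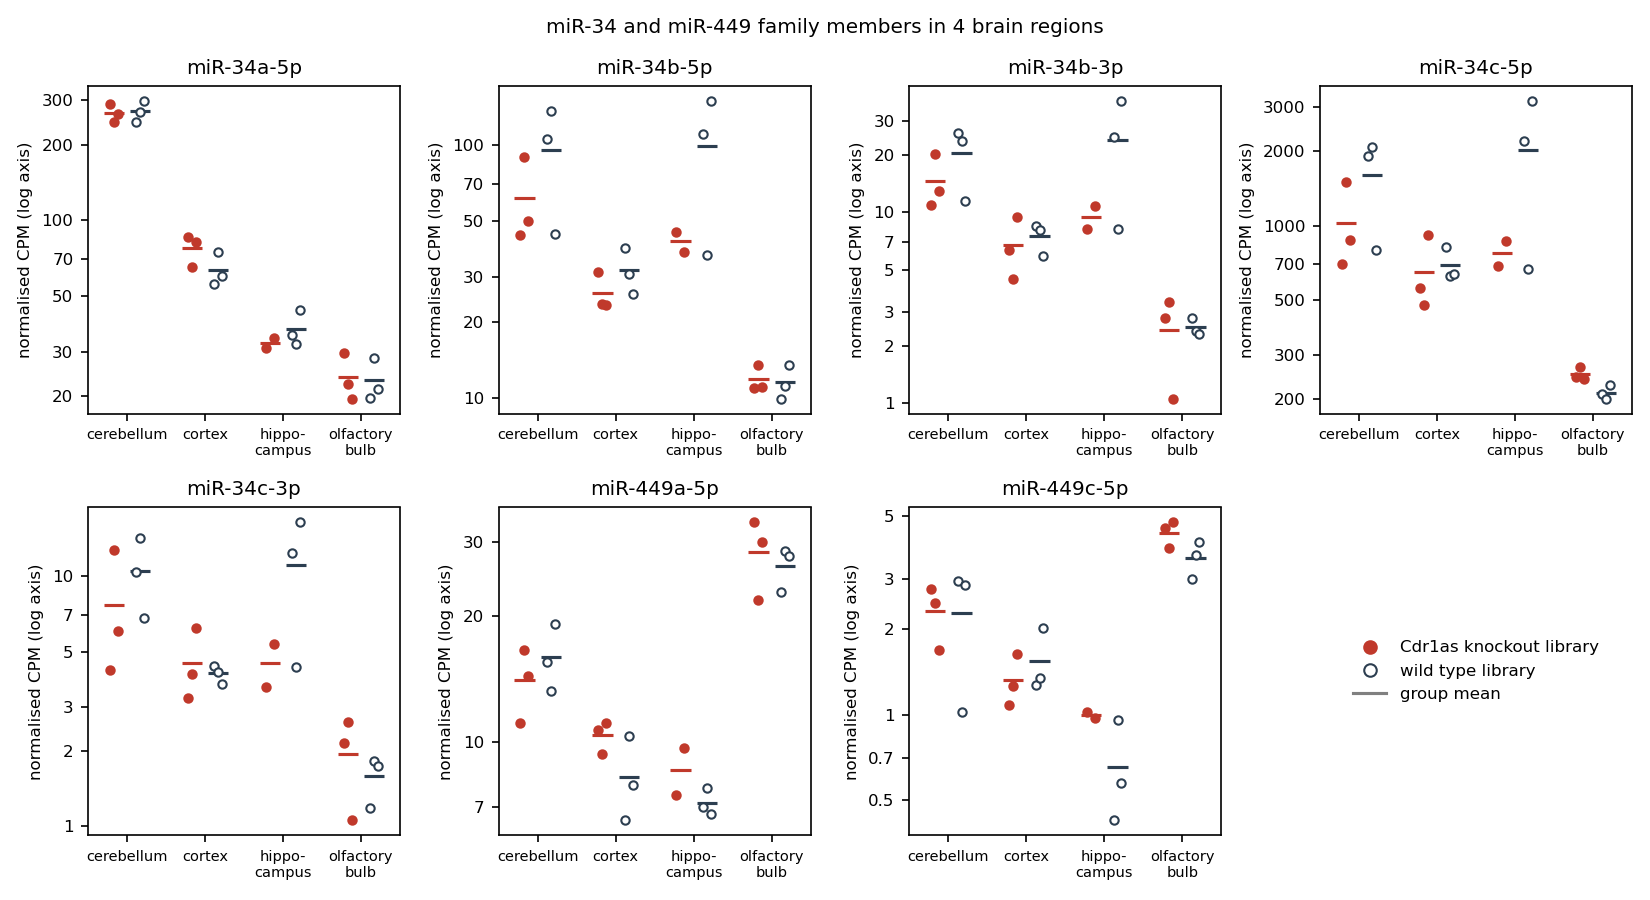
Level of each member (normalised CPM, log axis) in every library of the 4 regions, with Cdr1as knockout libraries as filled points left of wild type libraries as open points, and a line at each group mean. The axes differ between panels. miR-34a-5p peaks in the cerebellum, the miR-34b and miR-34c arms spread widely in the cerebellum and the wild type hippocampus, and both miR-449 members peak in the olfactory bulb.

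Each of the 3 loci had its own order of brain regions in wild type tissue. There miR-34a-5p was highest in the cerebellum, and the miR-34b and miR-34c arms were highest in the hippocampus and cerebellum. miR-449a-5p was highest in the olfactory bulb, where all 5 miR-34 members were lowest. In knockout tissue every miR-34b and miR-34c arm had its highest mean in the cerebellum. In bulk tissue, a smaller number of cells of a type and less RNA per cell cannot be told apart.

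miR-34a-5p had 245, 270 and 298 CPM in wild type cerebellum, against 55.7, 74.8 and 60.0 in wild type cortex, 35.1, 32.2 and 43.9 in hippocampus and 19.6, 28.4 and 21.4 in olfactory bulb. The 4 regions did not overlap for this p53-responsive miRNA. By group mean the order was cerebellum (271 ± 26.7), cortex (63.5 ± 10.02), hippocampus (37.1 ± 6.08) and olfactory bulb (23.1 ± 4.61 CPM; SD, n = 3 each). Each neighbour in that order differed in edgeR's quasi-likelihood test (Benjamini-Hochberg adjusted p = 1.94e-09, 0.00217 and 0.00275). The cerebellum stood 7.15-fold above the geometric mean of the other 3 wild type regions (log2 difference 2.84, SE 0.13, edgeR adjusted p = 1.38e-13). The knockout libraries gave the same order of means, with 266 ± 22.3, 77.6 ± 10.98, 32.5 ± 2.06 and 23.8 ± 5.18 CPM (SD, n = 3, 3, 2 and 3).

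miR-34c-5p, the most abundant member and one of the pair tied to motile cilia, had 2185, 671 and 3175 CPM in wild type hippocampus. It had 1905, 2073 and 795 CPM in wild type cerebellum, 820, 624 and 637 in cortex and 209, 201 and 228 in olfactory bulb. The hippocampus libraries spread 4.73-fold and overlapped those of cerebellum and cortex, while the olfactory bulb libraries lay below all others. Hippocampus (2010 ± 1261 CPM) and cerebellum (1591 ± 694) did not differ beyond their spread (edgeR adjusted p = 0.493), though with library size as the only scaling hippocampus passed as higher (cerebellum over hippocampus -1.02 on the log2 scale, edgeR adjusted p = 0.0439). Cerebellum was higher than cortex (694 ± 109; edgeR adjusted p = 0.0145) and cortex higher than olfactory bulb (213 ± 13.6; SD, n = 3 each; edgeR adjusted p = 0.00168). The call between cerebellum and cortex was lost without cerebellum replicate 1 (edgeR adjusted p = 0.0522) or 2 (0.0687), and with library size as the only scaling (0.271). The knockout means had another order, with 1026 ± 422 CPM in cerebellum, 778 ± 130 in hippocampus, 651 ± 231 in cortex and 252 ± 14.7 in olfactory bulb (SD, n = 3, 2, 3 and 3).

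In wild type tissue the other arms of the pair followed the same order as miR-34c-5p. miR-34b-5p averaged 98.7 ± 57.0 CPM in wild type hippocampus, 95.5 ± 46.8 in cerebellum, 32.0 ± 6.84 in cortex and 11.6 ± 1.85 in olfactory bulb (SD, n = 3 each). Its 3p arm averaged 23.8 ± 15.1, 20.4 ± 7.87, 7.49 ± 1.39 and 2.49 ± 0.257 CPM in the same order (SD, n = 3 each). miR-34c-3p, the rare arm of miR-34c, averaged 11.1 ± 6.18, 10.48 ± 3.70, 4.09 ± 0.336 and 1.58 ± 0.351 CPM (SD, n = 3 each). In none of the 3 did hippocampus and cerebellum differ beyond their spread (edgeR adjusted p = 0.926, 0.637 and 0.892), and in all 3 the step to cortex and the step to olfactory bulb passed (edgeR adjusted p of 0.00180 to 0.0381). With library size as the only scaling the step to cortex was lost for all 3 (edgeR adjusted p of 0.0637 to 0.184), and for miR-34c-3p it was also lost without cerebellum replicate 2 (0.0567). The step of miR-34c-3p to olfactory bulb was lost when any cortex or olfactory bulb library of the wild type was left out (edgeR adjusted p of 0.0521 to 0.158) and in limma-voom, as was that of miR-34b-3p in limma-voom.

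The miR-449 members, hosted by the cell cycle related gene Cdc20b, had their highest wild type means in the olfactory bulb, where the miR-34 members had their lowest. By mean, the other regions kept the order of miR-34a-5p, from cerebellum through cortex to hippocampus. miR-449a-5p had 22.8, 28.5 and 27.8 CPM in wild type olfactory bulb, against 15.5, 13.2 and 19.1 in cerebellum, 6.50, 10.3 and 7.91 in cortex and 7.004, 7.76 and 6.71 in hippocampus. The olfactory bulb libraries lay above all others, and cortex and hippocampus overlapped. The means ran from olfactory bulb (26.4 ± 3.09) through cerebellum (15.9 ± 2.99) and cortex (8.25 ± 1.94) to hippocampus (7.16 ± 0.543 CPM; SD, n = 3 each). The first 2 steps passed (edgeR adjusted p = 0.00378 and 0.000459) and cortex against hippocampus did not (0.539). With upper quartile scaling olfactory bulb against cerebellum missed the threshold (edgeR adjusted p = 0.109), and with library size as the only scaling cerebellum against cortex did (log2 difference 0.25, 0.232). The rarer miR-449c-5p had the same order, at 3.57 ± 0.529, 2.28 ± 1.09, 1.54 ± 0.409 and 0.653 ± 0.277 CPM (SD, n = 3 each). For it only the last step passed (edgeR adjusted p = 0.109, 0.171 and 0.0388), and that call was lost under 7 of the 8 other settings tried, RLE scaling being the exception (edgeR adjusted p = 0.0604 with the replicate number as a block).

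Between pairs of wild type regions, members past the threshold were 6 for cerebellum against cortex (62.6% of all miRNAs tested), 3 for cerebellum against hippocampus (57.7%) and 6 for cerebellum against olfactory bulb (55.5%). They were 6 for cortex against hippocampus (20%), 7 for cortex against olfactory bulb (53.2%) and 7 for hippocampus against olfactory bulb (53.4%). The miR-449c-5p call for cortex against olfactory bulb (log2 difference -1.18, edgeR adjusted p = 0.00677) was lost with library size as the only scaling (-0.29, 0.506). Most of the count for cortex against hippocampus rested on 1 library, since without wild type hippocampus replicate 3 a single member, miR-34a-5p, passed. The miR-34c-3p call there was also lost without any 1 wild type cortex library or hippocampus replicate 1 (edgeR adjusted p of 0.0512 to 0.0759). So it was with only the groups compared (edgeR adjusted p = 0.0517) and in limma-voom (adjusted p = 0.0717).

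Set against the mean of the other 3 wild type regions, 6 of the 7 members passed in the cerebellum, all higher, where 64.3% of all miRNAs tested passed in either direction and 32.7% as higher. miR-449c-5p was the other one (log2 difference 0.55, edgeR adjusted p = 0.0865). It passed with upper quartile scaling (0.83, edgeR adjusted p = 0.0154), without cerebellum replicate 2 (0.92, 0.00413) and without hippocampus replicate 2 (0.68, 0.0414). miR-449a-5p passed narrowly (0.46, edgeR adjusted p = 0.0161), and its call was lost with library size as the only scaling (0.07, edgeR adjusted p = 0.720), without the count filter (0.41, 0.0626) and without cerebellum replicate 3 (0.30, 0.165).

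In the hippocampus all 7 passed, against 46.3% of all miRNAs (24.8% higher and 21.5% lower). The miR-34b and miR-34c arms were higher, by 1.45 (miR-34c-3p) to 1.70 (miR-34b-3p and miR-34c-5p) on the log2 scale. miR-34a-5p (-0.99), miR-449a-5p (-1.08) and miR-449c-5p (-1.75) were lower. In the olfactory bulb all 7 passed as well, against 51.3% of all miRNAs (26.8% higher and 24.5% lower). The 5 miR-34 members were lower there, from -2.62 for miR-34c-5p to -1.90 for miR-34a-5p, and miR-449a-5p (1.42, SE 0.15, edgeR adjusted p = 1.30e-07) and miR-449c-5p (1.39, SE 0.27, edgeR adjusted p = 0.000270) were higher.

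In the cortex 1 member passed, against 50.5% of all miRNAs (23.6% lower). miR-449a-5p was lower there by -0.80 on the log2 scale (SE 0.17, edgeR adjusted p = 0.000741), and this was -0.27 (0.146) with library size as the only scaling. That scaling moved the median of all miRNAs in this contrast to 0.52, and miR-34a-5p, at 0.05 with TMM, then passed as higher (0.57, edgeR adjusted p = 0.000741). Wild type cortex libraries held 3676 to 6802 CPM of olfactory bulb miRNAs (the summed miR-200 family and miR-183 cluster, 8 miRNAs), against 141 to 445 CPM in knockout cortex, 175 to 327 CPM in the hippocampus of both genotypes and 218985 CPM or more in every olfactory bulb library. Their part in the cortex values of the family was not tested.

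**Figure D2:**
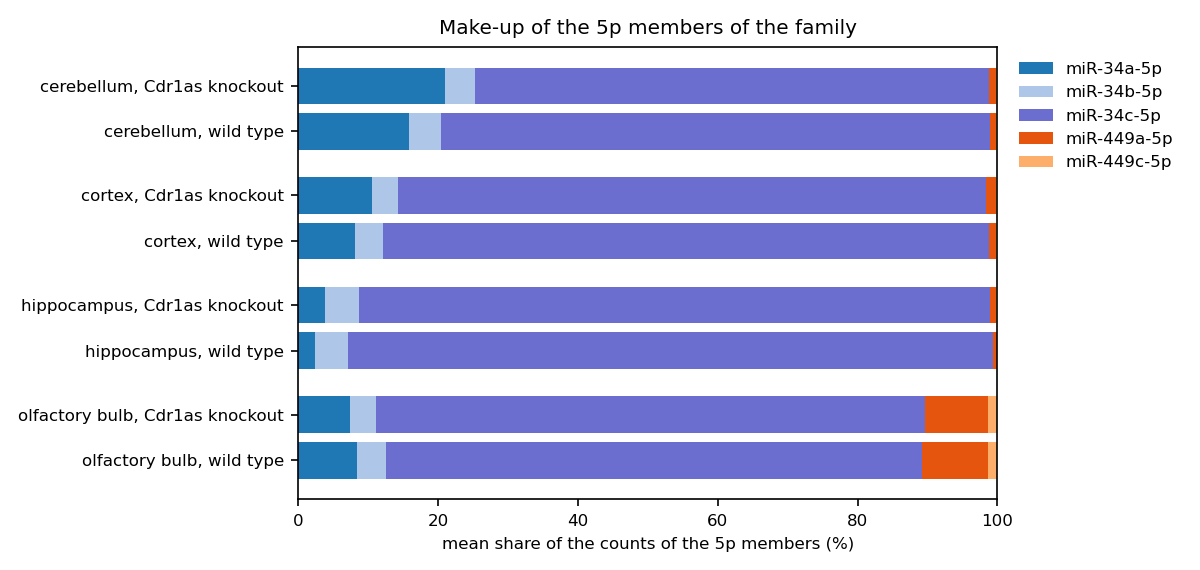
Mean share of each of the 5p members (percent of their summed counts) in each region and genotype, with the knockout bar above the wild type bar. miR-34c-5p makes up 73.4% to 92.4% of every bar, miR-34a-5p is broadest in the cerebellum, and miR-449a-5p is visible mainly in the olfactory bulb.

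Read as 1 pool of 5p arms, the family was mostly miR-34c-5p everywhere. Its share was 73.4 ± 7.11% in knockout and 78.5 ± 8.60% in wild type cerebellum, and 90.2 ± 1.66% in knockout and 92.4 ± 2.41% in wild type hippocampus (SD, n = 3 each, 2 for knockout hippocampus). miR-34a-5p made up 20.9 ± 7.29% in knockout and 15.8 ± 8.60% in wild type cerebellum, its broadest share, and 3.79 ± 0.326% in knockout and 2.37 ± 1.67% in wild type hippocampus, its narrowest (SD, n = 3 each, 2 for knockout hippocampus). miR-449a-5p made up 8.92 ± 2.00% of the pool in knockout and 9.51 ± 0.919% in wild type olfactory bulb, and group means of 0.512% to 1.41% in the other regions. The whole pool came to 1370 ± 429 CPM in knockout and 1976 ± 715 in wild type cerebellum, 766 ± 237 in knockout and 799 ± 107 in wild type cortex, 862 ± 128 in knockout and 2154 ± 1323 in wild type hippocampus, and 320 ± 12.8 in knockout and 277 ± 15.4 in wild type olfactory bulb (SD, n = 3 each, 2 for knockout hippocampus). Sequencing libraries can favour 1 sequence over another, so shares between members are shares of reads.

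Knockout and wild type tissue were then compared for each member in each region. No member passed the threshold in any region, in the mean of the 4 regions or in the test that the genotype effect differs between regions. In the cerebellum 0.149% of all miRNAs passed, in the cortex 2.09%, in the hippocampus 0%, in the olfactory bulb 0.149%, in the mean 1.49% and in the test between regions 1.64%, so a count of 0 among 7 members is close to what all miRNAs showed. At an unadjusted p under 0.05, edgeR gave 4 members in the hippocampus, where 5.83% of all miRNAs did so. These were the arms of the miR-34b/c pair. In the mean of the 4 regions edgeR gave 2, miR-34b-5p and miR-34c-5p, where 5.83% did. It gave 0 members in the cerebellum (1.94% of all miRNAs), the cortex (4.63%), the olfactory bulb (2.99%) and the test between regions (3.89%). DESeq2 and limma-voom called 0 members in every one of these comparisons.

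**Figure D3:**
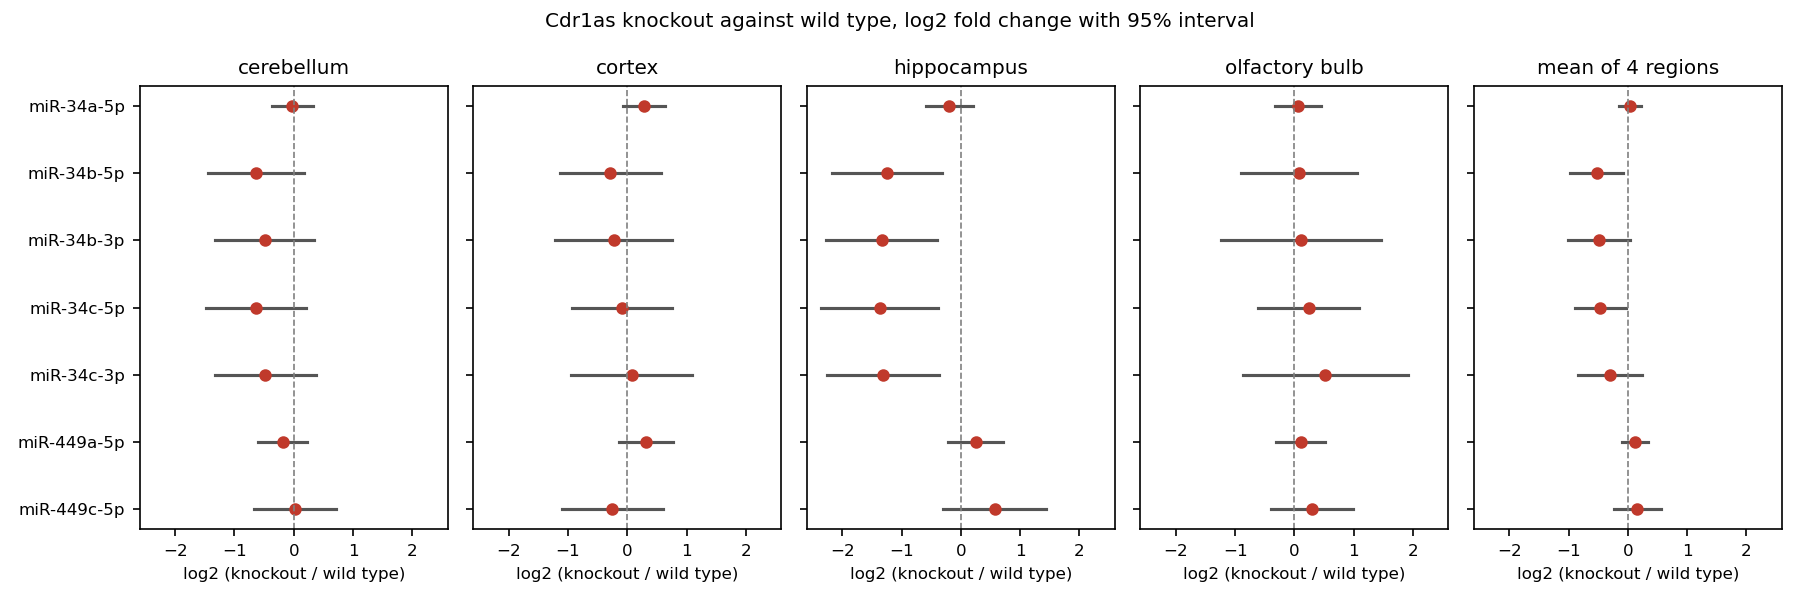
Log2 fold change of knockout over wild type for each member (points) with its 95% interval (lines), in each region and for the mean of the 4 regions, with the dashed line at no difference. The hippocampal intervals of the miR-34b and miR-34c arms lie below 0 before adjustment for the number of miRNAs, as do those of miR-34b-5p and miR-34c-5p in the mean of the regions, and those of miR-34a-5p and the miR-449 members span 0 in every panel.

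miR-34a-5p did not pass in any region, and its intervals were the narrowest of the family. In the cerebellum, its main site, it had 290, 245 and 264 CPM in knockout libraries, against 245, 270 and 298 in wild type libraries. In the cortex it had 85.6, 65.1 and 82.1 CPM in knockout libraries, against 55.7, 74.8 and 60.0 in wild type libraries. The genotypes overlapped in all 4 regions. The mean log2 change over the regions was 0.03 with a 95% interval of -0.15 to 0.22, and the largest single one was 0.29 in the cortex (-0.07 to 0.64; edgeR adjusted p = 0.997). A change in this miRNA beyond about 0.22 averaged over the regions therefore lies outside the interval.

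The miR-449 members did not pass either. miR-449a-5p had 33.5, 21.9 and 30.1 CPM in knockout olfactory bulb, against 22.8, 28.5 and 27.8 in wild type olfactory bulb. Its mean log2 change over the 4 regions was 0.12 (95% interval -0.10 to 0.34; edgeR unadjusted p = 0.268). miR-449c-5p had 1.021 and 0.973 CPM in knockout hippocampus, against 0.424, 0.960 and 0.573 in wild type hippocampus, from 17 and 12 counts against 4, 12 and 7. These groups did not overlap, as was so for 16.9% of all miRNAs there, and the log2 change of 0.57 had an interval of -0.30 to 1.44. The change averaged over the regions of miR-449c-5p was 0.16 (-0.23 to 0.55).

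In the hippocampus all 4 arms of the miR-34b/c pair had lower means in knockout than in wild type tissue, and 2 of the 3 wild type libraries held far more than the other libraries of the region. miR-34c-5p had 686 and 870 CPM in knockout libraries, against 2185, 671 and 3175 in wild type libraries. Wild type replicate 2 sat below both knockout libraries, so the genotypes overlapped. The log2 change was -1.37 (SE 0.47, 95% interval -2.35 to -0.39; edgeR unadjusted p = 0.00870, adjusted p = 0.454).

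miR-34b-5p showed the same split, with 45.4 and 37.9 CPM in knockout libraries, against 110.05, 36.9 and 149 in wild type libraries. So did miR-34b-3p, with 8.17 and 10.8 CPM in knockout libraries, against 24.9, 8.16 and 38.4 in wild type libraries. In miR-34c-3p the values were 3.604 and 5.35 CPM in knockout libraries, against 12.4, 4.32 and 16.4 in wild type libraries. In all 3, wild type replicates 1 and 3 were high and replicate 2 was low, below both knockout libraries for the miR-34b arms and between them for miR-34c-3p. The log2 changes were -1.24 for miR-34b-5p, -1.33 for miR-34b-3p and -1.31 for miR-34c-3p (edgeR adjusted p = 0.557, 0.454 and 0.454).

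A single library decided these calls. Without wild type hippocampus replicate 2 all 4 arms passed, at -1.78 for miR-34c-5p, -1.63 for miR-34b-5p, -1.74 for miR-34b-3p and -1.70 for miR-34c-3p (edgeR adjusted p = 0.0256, 0.0305, 0.0224 and 0.0303), among 8 of 666 miRNAs called in that fit (1.2%). The same 4 passed with all libraries when the count filter was left off (edgeR adjusted p of 3.08e-09 to 0.000620), among 20 of 1459 called (1.37%). The median log2 change of the 7 members in the hippocampus was -1.24, the value of miR-34b-5p, beside 0.00 for all 669 miRNAs. It reflects the 4 arms of the miR-34b/c pair, which varied together and are not separate replicates. The other members changed by -0.19 (miR-34a-5p), 0.25 (miR-449a-5p) and 0.57 (miR-449c-5p).

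Choroid plexus miRNAs were high in the same libraries. The 9 listed ones measured here, led in abundance by miR-204-5p and miR-1298-5p, summed to 2671 and 2731 CPM in knockout hippocampus, against 8542, 2483 and 10330 CPM in wild type hippocampus. miR-1298-5p, whose gene lies within the choroid plexus receptor gene Htr2c, had 102 and 76.9 CPM in knockout libraries, against 1816, 112 and 2385 in wild type libraries. None of the 9 passed for genotype in any region (lowest edgeR adjusted p = 0.298), their median log2 change in the hippocampus was -1.42, and none was at 0 counts in a hippocampus library. Most of the sum was miR-204-5p, with 2428 and 2553 CPM in knockout hippocampus, against 6244, 2225 and 7391 in wild type hippocampus. The other 8 came to 243 and 177 CPM in knockout hippocampus, against 2298, 258 and 2940 in wild type hippocampus. Between its lowest and highest hippocampus library miR-34c-5p differed 4.73-fold, the whole list 4.16-fold, the list without miR-204-5p 16.6-fold and miR-449a-5p 1.44-fold. The part of choroid plexus tissue in the miR-34b/c values was not tested.

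**Figure D4:**
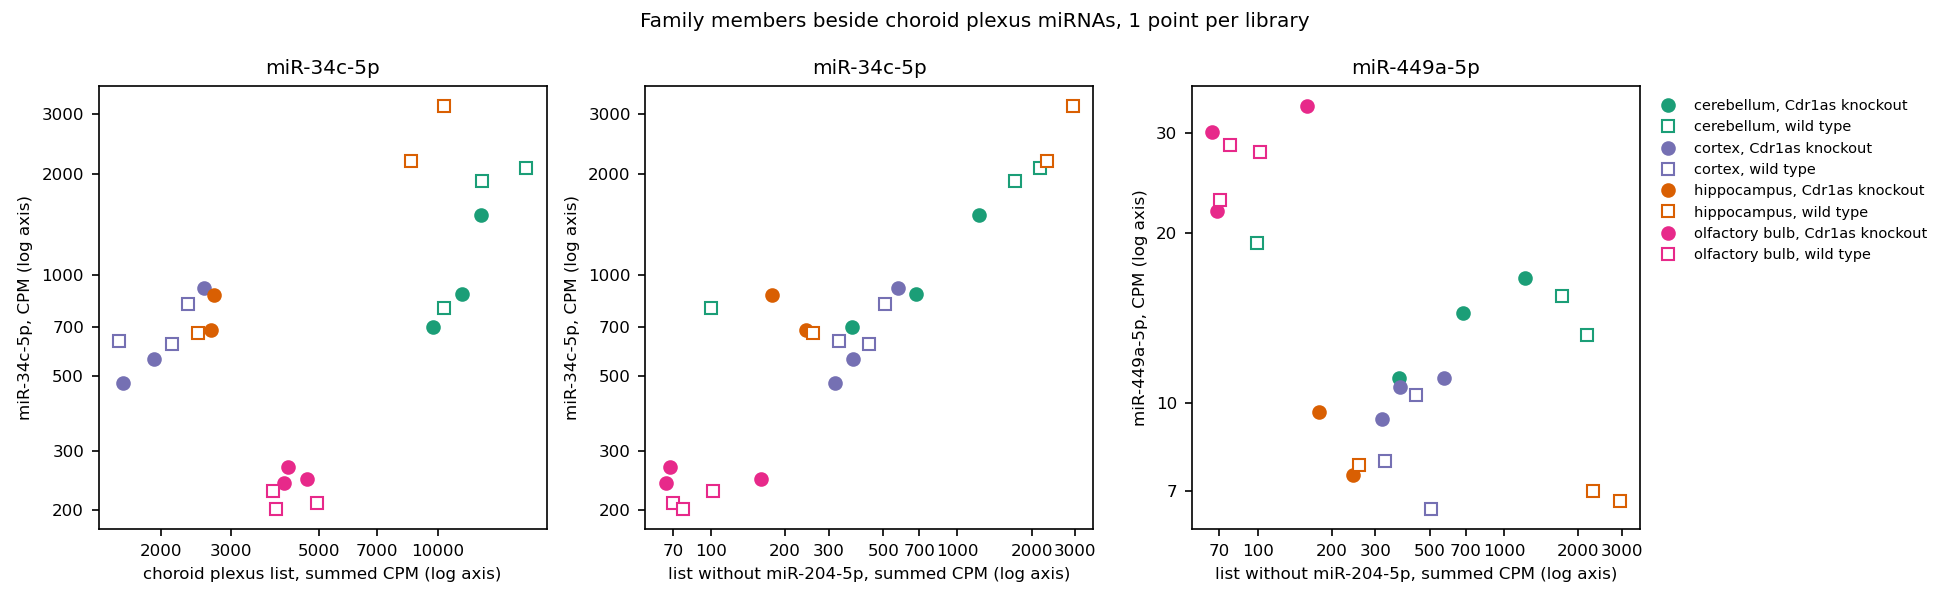
Level of miR-34c-5p against the summed level of 9 choroid plexus miRNAs (left) and against that sum without miR-204-5p (middle), and level of miR-449a-5p against the sum without it (right), all in CPM on log axes, 1 point per library, coloured by region, filled circles for knockout and open squares for wild type. The wild type hippocampus libraries with 2185 and 3175 CPM of miR-34c-5p are high on both sums and have 7.004 and 6.71 CPM of miR-449a-5p, and the olfactory bulb libraries lie below cortex on the sum without miR-204-5p but above it on the whole sum.

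The order of the regions on this list depended on miR-204-5p. The whole sum was 9683 to 12856 CPM in knockout and 10338 to 16679 CPM in wild type cerebellum, 4086 to 4667 in knockout and 3846 to 4944 in wild type olfactory bulb, and 1604 to 2566 in knockout and 1569 to 2338 in wild type cortex. Without miR-204-5p it was 374 to 1221 CPM in knockout and 99.8 to 2165 in wild type cerebellum, 65.5 to 159 in knockout and 70.5 to 102 in wild type olfactory bulb, and 319 to 573 in knockout and 329 to 506 in wild type cortex. The olfactory bulb was thus above the cortex on the whole sum and below it without miR-204-5p. In wild type tissue 6 of the 9 listed miRNAs were higher in the cerebellum than elsewhere (32.7% of all miRNAs), 6 in the hippocampus (24.8%) and 1 in the olfactory bulb (26.8%), and 6 were lower in the olfactory bulb (24.5%).

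In the cerebellum the miR-34b/c arms also had lower means in knockout, without passing. miR-34c-5p had 698, 1502 and 878 CPM in knockout libraries, against 1905, 2073 and 795 in wild type libraries. miR-34b-5p had 44.2, 90.0 and 50.2 CPM in knockout libraries, against 106, 136 and 44.5 in wild type libraries. For both, wild type replicate 3 was among the low libraries and knockout replicate 2 was the highest knockout library, so the groups overlapped. The log2 changes were -0.63 (95% interval -1.48 to 0.21) and -0.64 (-1.45 to 0.17), with an edgeR adjusted p of 1 for each. The choroid plexus list had a median change of -0.78 there, with sums of 9683, 12856 and 11500 CPM in knockout libraries and 12888, 16679 and 10338 in wild type libraries. Without miR-204-5p the sums were 374, 1221 and 682 CPM in knockout libraries and 1718, 2165 and 99.8 in wild type libraries, a 21.7-fold range, and 2 of the 9 were at 0 in wild type replicate 3. On that sum, as for miR-34c-5p, wild type replicates 1 and 2 and knockout replicate 2 were the high libraries. The part of choroid plexus tissue in the cerebellar values was not tested.

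In the cortex the genotypes overlapped, with 561, 478 and 913 CPM of miR-34c-5p in knockout libraries, against 820, 624 and 637 in wild type libraries (log2 change -0.09, interval -0.94 to 0.75). In the olfactory bulb miR-34c-5p had 247, 268 and 240 CPM in knockout libraries, against 209, 201 and 228 in wild type libraries. Every knockout library was above every wild type library there, a separation that 6.43% of all miRNAs showed, and the log2 change of 0.25 (interval -0.61 to 1.10) did not pass (edgeR adjusted p = 1). No member separated the genotypes in the cerebellum or the cortex, where 7.03% and 7.62% of all miRNAs did. Averaged over the 4 regions, miR-34b-5p had a log2 change of -0.52 (95% interval -0.97 to -0.08; edgeR unadjusted p = 0.0236, adjusted p = 0.670) and miR-34c-5p one of -0.46 (-0.90 to -0.03; edgeR unadjusted p = 0.0389, adjusted p = 0.792). The test of whether the genotype effect differed between regions gave an edgeR adjusted p of 0.996 for every member.

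Ratios between members do not depend on how libraries are scaled. The 5p arm of miR-34c outnumbered the 3p arm 99.6-fold to 193-fold in every library, and that of miR-34b 2.46-fold to 8.60-fold. The mean difference over regions, knockout minus wild type, was -0.08 for the miR-34c arms and 0.00 for the miR-34b arms on the log2 scale (two-sided exact permutation within regions over 80000 arrangements, p = 0.469 and 0.992; adjusted over 3 ratios, 0.704 and 0.992). Arm use of both hairpins therefore showed no difference past the threshold between genotypes.

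**Figure D5:**
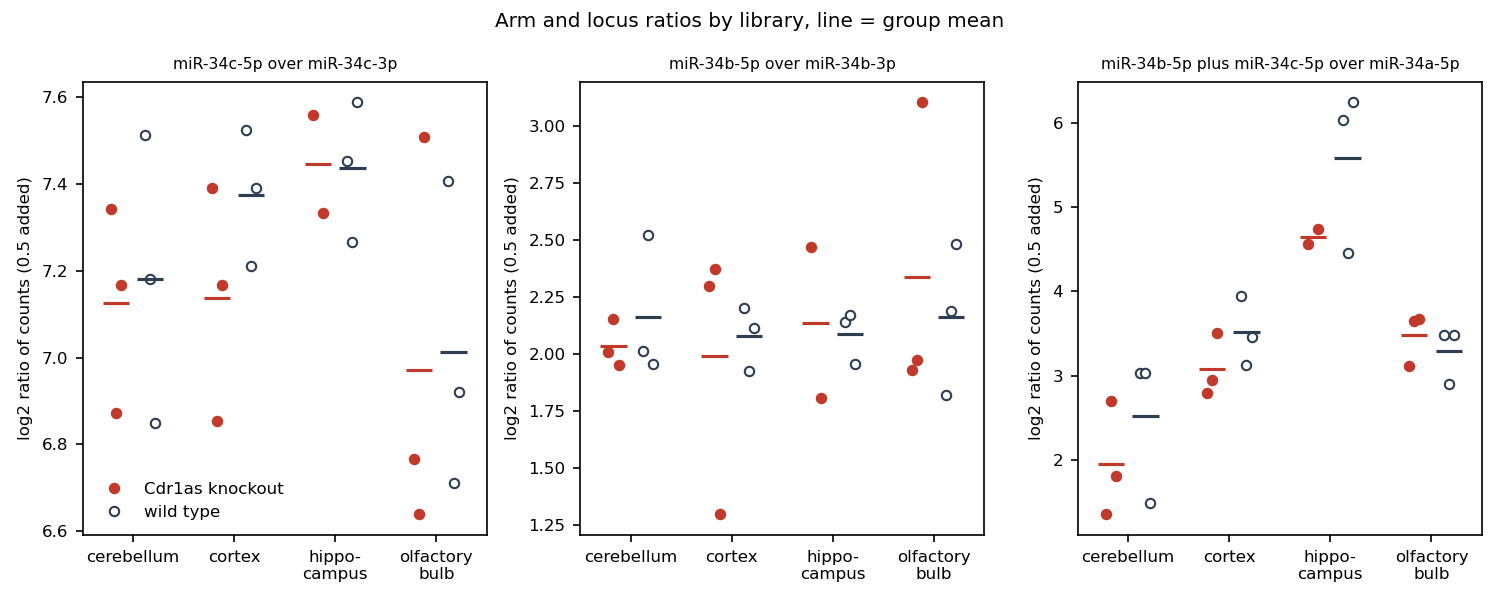
Log2 ratios of counts (0.5 added) in every library for the miR-34c arms, the miR-34b arms, and miR-34b-5p plus miR-34c-5p over miR-34a-5p, knockout left of wild type in each region, with a line at each group mean. The arm ratios overlap between genotypes in every region; the ratio between loci is lowest in the cerebellum and highest in the hippocampus.

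The balance between the chromosome 9 and chromosome 4 loci, miR-34b-5p plus miR-34c-5p over miR-34a-5p, was 23.6 and 26.7 in knockout hippocampus, against 65.2, 22.0 and 75.7 in wild type hippocampus. In the cerebellum it was 2.56, 6.49 and 3.52 in knockout libraries, against 8.21, 8.17 and 2.82 in wild type libraries. The genotypes overlapped in each of these regions. The mean difference over the 4 regions was -0.43 on the log2 scale, the cerebellum giving -0.56, the cortex -0.43, the hippocampus -0.93 and the olfactory bulb 0.19 (two-sided exact permutation p = 0.117, adjusted over 3 ratios p = 0.350). Among wild type libraries the ratio in the hippocampus was 5.54-fold that of the other regions (log2 difference 2.47; two-sided exact permutation of 3 among 12 libraries, p = 0.00455, the smallest that 220 arrangements can give). Adjusted over the 12 such tests it was p = 0.0545, and the cerebellum, at -1.60, gave an adjusted p of 0.355 by the same exact test. The 8 tests of arm ratios by region gave adjusted p of 0.418 to 0.814 by exact permutation.

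Neighbours on a chromosome kept a narrower proportion. miR-34c-5p over miR-34b-5p lay between 15.1 and 38.9 with a median of 19.8 over the 23 libraries, and the top value was cortex knockout replicate 3, the shallowest library. miR-449a-5p over miR-449c-5p lay between 3.92 and 16.5 with a median of 7.38, on few counts of miR-449c-5p. Between loci the range was wider, since miR-34c-5p over miR-449a-5p ran from 7.04 to 12.3 in olfactory bulb and from 86.5 to 473 in hippocampus.

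The likeness of the profiles was measured as the root mean square difference of log2 CPM over the 23 libraries, each profile centred on its own mean. The 4 arms of miR-34b and miR-34c differed from each other by 0.28 to 0.40, and miR-449a-5p from miR-449c-5p by 0.38. miR-34a-5p differed from the miR-34b/c arms by 1.08 to 1.18, and the miR-34 members from the miR-449 members by 1.53 to 1.86. These are descriptions over libraries that share regions and scaling.

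Among 405 other miRNAs with a mean of at least 10 CPM, the profiles most like that of miR-34a-5p were miR-598-3p (0.46), miR-133a-3p (0.48), miR-582-5p (0.58), miR-582-3p (0.68) and miR-652-3p (0.74), beside a median of 1.43 for all 405. All 5 peaked in the cerebellum. miR-598-3p, for example, averaged 1144 CPM in knockout and 1262 in wild type cerebellum, and 109 CPM in knockout and 104 in wild type olfactory bulb. For miR-34c-5p the nearest over the 23 libraries were miR-219a-2-3p (0.66), an oligodendrocyte miRNA, then miR-299a-3p (0.72), miR-299b-3p (0.72), miR-376a-5p (0.74) and miR-376b-5p (0.76), beside a median of 1.23. Over the 8 group means, 4 of these 5 were again among the nearest 5, and miR-219a-5p came first (0.44). The values of the miR-299a and miR-299b pair are uncertain to the extent that such close relatives exchange reads. miR-204-5p, the most abundant choroid plexus miRNA of the list, was not among the nearest 5. The measure also counts differences in the size of swings, and the profile of miR-34c-5p itself spread by 1.13 over the 23 libraries. The nearest profiles thus need not share its split in the hippocampus, where miR-219a-2-3p averaged 412 CPM in knockout and 391 in wild type. A link to choroid plexus tissue was not tested by this ranking.

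Other miRNAs linked to p53 did not pass between genotypes. Of the 8 listed, which include miR-143-3p, a smooth muscle miRNA, and miR-16-5p, a cell cycle repressor, 0 passed in each region and in the mean, with median log2 changes between -0.07 and 0.05. In wild type tissue miR-194-5p (2.22) and miR-192-5p (1.98) stood higher in the cerebellum, as miR-34a-5p was, and miR-16-5p (0.77) and miR-15a-5p (0.51) were too, while the other 4 did not pass (32.7% of all miRNAs were higher). In the olfactory bulb, where miR-34a-5p was lowest, 3 of the 8 were higher and 3 lower, beside 26.8% and 24.5% of all miRNAs. Of the hindbrain miRNAs, the 2 tested, miR-10b-5p and miR-10a-5p, were higher in wild type cerebellum (32.7% of all miRNAs). The 4 oligodendrocyte miRNAs, led by miR-338-3p and miR-219a-2-3p, and the 5 red blood cell miRNAs, led by the pair miR-486a-5p and miR-486b-5p, had 0 members past the threshold for genotype in every region. This pair had identical means, SDs and ranges in every group, so its members are not separate measurements. Of the 8 olfactory bulb miRNAs, led by miR-182-5p and miR-183-5p, all fell in knockout cortex, where 2.09% of all miRNAs passed in either direction. None passed for genotype in the other 3 regions. In the mean of the 4 regions 7 fell, where 1.49% of all miRNAs passed. Their median log2 change was -4.02 in cortex, -1.60 in cerebellum, -0.38 in hippocampus and 0.02 in olfactory bulb.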

How the data were processed

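Each library came as 1 table of unnormalised counts by mature miRNA, as the authors deposited it; mm9 is the genome build used, per the submitters' processing notes. Per the labels' protocols, RNA was extracted with TRIZOL and libraries made with the TruSeq Small RNA kit. How reads were aligned, counted and, where they matched several miRNAs, assigned was not stated in the sources used here, so near-identical miRNAs may exchange reads.

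The steps here were filterByExpr (minimum count 10, minimum total 15), TMM scaling (factors 0.620 to 1.41) and edgeR 4.0.16 (R 4.3.3) quasi-likelihood tests in 1 fit of the 8 group means. Benjamini-Hochberg adjustment ran over 669 miRNAs with a threshold of 0.05, and the fit was tested on simulated data. Alternatives used DESeq2 1.42.0, limma 3.58.1 (voom), other scalings, no filter, a replicate block and leaving out each library. Ratios used counts plus 0.5 and exact permutation tests. No 2 libraries of a group were duplicates (lowest chi-square per degree of freedom 28.4).

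The members and lists were chosen with earlier results of these data known. Named miRNAs are the 7 members, the 5 profiles nearest to miR-34a-5p and to miR-34c-5p, and the 2 most abundant miRNAs of each list; others named were chosen after their values were seen. Same-numbered knockout and wild type libraries deviated together in the cerebellum (correlations 0.103 to 0.374 in 3 pairs), which meets the rule for pairing there, and in 2 of 8 pairs elsewhere. Among differently numbered cerebellum pairs, knockout 1 with wild type 3 had 0.195, within that range, and the others ran from -0.378 to -0.025. The labels do not say that same-numbered libraries match, and the main model has no block.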

Additional observations from a re-analysis of the deposited data

How the results depend on the processing

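Between genotypes, counts of members past the threshold stayed at 0 with RLE, upper quartile or library size scaling, DESeq2, limma-voom, only the groups compared and the replicate block. Without the count filter they were 1 in cerebellum (miR-34c-5p), 4 in hippocampus, 3 in the mean of 4 regions and 3 in the test between regions, where 0.822%, 1.37%, 1.44% and 2.12% of all 1459 miRNAs were called, and the cause was not tested. Leaving out 1 library gave 0 to 4 in hippocampus, the 4 without wild type replicate 2, and 0 in the other genotype comparisons. For wild type cortex against the other regions the count was 2 with upper quartile scaling or without the filter, instead of 1, and 1 to 2 without 1 library (2 without hippocampus replicate 2). For cerebellum against cortex it was 1 instead of 6 with library size only, and for cortex against hippocampus it ran from 1 to 6 (1 without hippocampus replicate 3). The other wild type counts were within 1.5 times throughout, and none of the 15 family ratio tests changed its call. For the 12 ratio tests by region this says little. A single one at the smallest exact permutation p of 0.00455 has an adjusted p of 0.0545 and cannot pass alone. With the replicate number as a block (the 11 knockout and wild type pairs) 0 members passed between genotypes, and cortex against hippocampus had 5 members instead of 6, miR-449c-5p being lost (adjusted p = 0.0604); no other call changed. Exchange within the 11 pairs gave -0.08, 0.01 and -0.38 for the 3 ratios (exact permutation, adjusted p = 0.693, 0.951 and 0.542). With library size only the median of all miRNAs moved to -0.37 in cerebellum, 0.55 in hippocampus and -0.71 in olfactory bulb against the other regions. No called value changed sign. Depth limits miR-449c-5p and the 3p arms most.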
